A study of Mus musculus with 14 samples.

Results

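The 10 genes described here encode mouse enzymes that methylate lysine 9 of histone H3, with proteins that recruit, stabilise or read them: Ehmt2 (whose protein is G9a), Ehmt1, Wiz, Setdb1, Trim28, Suv39h2, Setdb2, Cbx5, Cbx1 and Cbx3. They were taken from a list of names, with every region of the 3 deposited tables that overlaps the gene body or the 10000 bp on either side of it (mm10). They are 10 of 21887 protein-coding genes, and 125 of 1186054 nuclear regions lie in their windows. The chromatin was that of a cardiomyocyte-enriched population isolated from C57BL/6J mice. The 14 libraries of the series are, for mice under transverse aortic constriction (TAC) for 1 week and for sham mice, 2 biological replicates each with antibodies to G9a, dimethylated H3K9 (H3K9me2) and trimethylated H3K27 (H3K27me3), and 1 input each. TAC narrows the aorta by surgery and puts the left ventricle under pressure load; the treatment label of the sham mice reads no treatment. All mice share 1 strain, and sex, age and whether animals were pooled are not given in the labels. Enrichment is not purity: in such a bulk sample, fewer cells of a type and less signal per cell cannot be told apart.

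Each line of the authors' deposited tables holds a region, 4 whole-number values and a p, and the regions run up to a p of 0.01. The first 2 values were taken as a first pair of libraries, of 1 condition, and the others as a second pair. No table says which pair is TAC and which is sham, so results are given as higher in the second or in the first pair. A log2 difference is that of the pair means plus 1, second over first. It understates differences at low values. A region is called separated when the pairs do not overlap, that is, when the lower value of the higher pair is above the higher value of the other.

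G9a and its partner GLP, the product of Ehmt1, form a heterodimer that places mono- and dimethylation on H3K9, largely in gene-rich chromatin, where the mark goes with silencing. Wiz is a zinc finger protein that binds this dimer. Trimethylation of H3K9 is mainly the work of Suv39h enzymes at repeats and of Setdb1, which Trim28 brings to sites bound by KRAB zinc finger proteins, and the heterochromatin proteins Cbx5, Cbx1 and Cbx3 bind the methylated lysine. H3K27me3 is placed by another machinery, the Polycomb complex PRC2.

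For G9a, a region of either direction was listed at all 10 genes, beside 92.3% of all protein-coding genes. For H3K9me2 one was listed at 6 of the 10 genes, beside 73.7%. For H3K27me3 one was listed at 9 of the 10 genes, beside 84.7%, and Cbx3 had none. Regions of the G9a table with higher values in the second pair lay at 7 of the 10 genes, beside 73.2% of all protein-coding genes, and those higher in the first pair at 9, beside 89.1%. For H3K9me2 these were 3 genes beside 52.0% in the second pair and 4 genes beside 64.7% in the first pair. For H3K27me3 they were 7 genes beside 69.7% and 8 genes beside 79.9%. By number of genes, then, the group stood near the background for G9a and H3K27me3. For H3K9me2 the counts were under it by few genes. That gap was not tested, and the windows were not matched for length. In regions, G9a had 21 higher in the second pair and 42 in the first, H3K9me2 had 7 and 8, and H3K27me3 had 26 and 21.

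**Figure D1:**
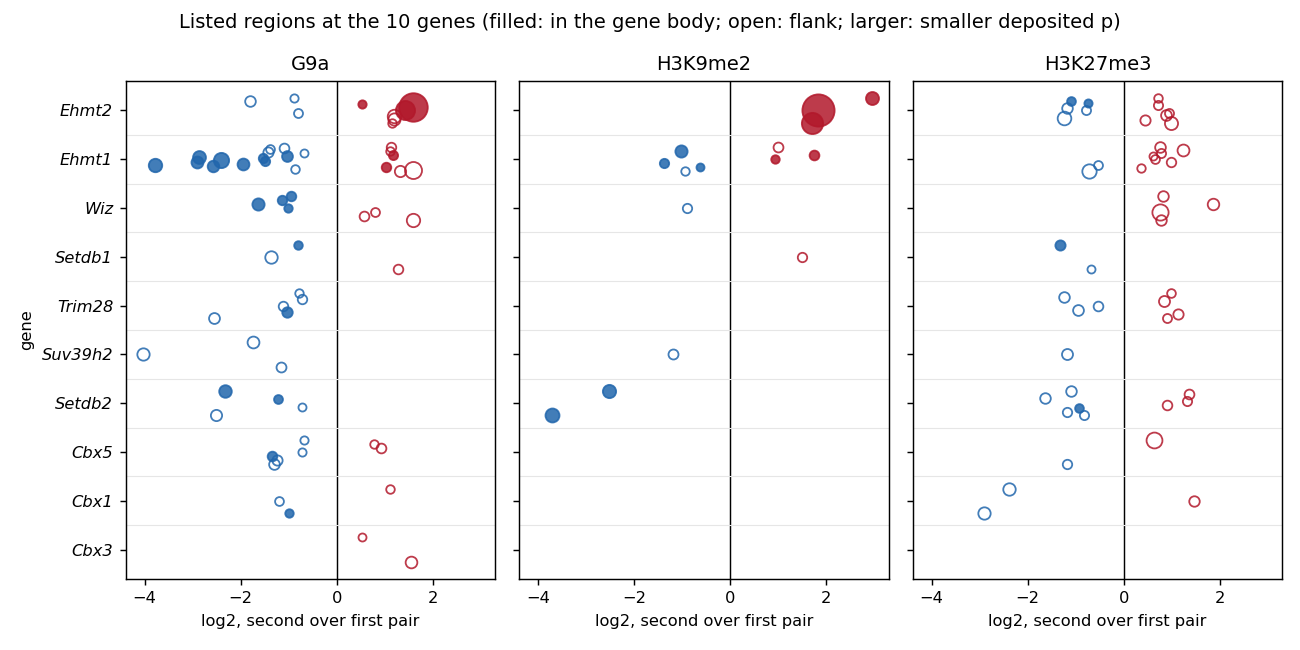
Each circle is a listed region at 1 of the 10 genes (down the page), placed by its log2 difference of pair means, second over first; red is higher in the second pair and blue in the first, filled circles lie in the gene body, open ones in the flanks, and larger circles have a smaller deposited p. Ehmt2 has all 3 of its H3K9me2 regions above 0, while Setdb2 and Suv39h2 have all of their H3K9me2 and G9a regions below 0.

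Inside the gene bodies the picture was uneven. Second-pair G9a regions lay in the bodies of 2 genes, Ehmt2 and Ehmt1 (48.0% of all genes had one), and first-pair G9a regions in 7 (67.0%). H3K9me2 had second-pair regions in 2 bodies, again Ehmt2 and Ehmt1 (32.6%), and first-pair regions in 2, Ehmt1 and Setdb2 (40.9%). H3K27me3 had second-pair regions in none of the 10 bodies (42.5%) and first-pair regions in 3 (46.7%). All 26 second-pair H3K27me3 regions lay in the flanks, 14 of them over another gene.

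The libraries of a pair often disagreed. For G9a, 12 of the 21 second-pair regions were separated, beside 63.1% of all such regions, and 21 of the 42 first-pair regions, beside 59.8%. For H3K9me2 the counts were 6 of 7 (66.3%) and 7 of 8 (69.2%), and for H3K27me3 18 of 26 (71.4%) and 14 of 21 (67.6%). Library 1 of the second G9a pair had a median of 52 over all regions in the authors' deposited table, against 90 in library 2 of that pair and 77 and 94 in the first pair, and 9.34% of its values were 0. It had the lowest median and the most zeros, but was not the lowest in its summed values. These were 41922229 and 48327896 in the second pair and 36881071 and 44672116 in the first pair, from the authors' deposited table. At the 10 genes, 13 of the 63 G9a values of library 1 of the second pair were 0, against 1 in the other library of the pair and none in the first pair. The part of this library in the first-pair G9a regions was not tested; without it the G9a table gave 26 regions higher in the second pair and 37 in the first.

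With 2 libraries a pair, limma on log2(value + 1) called no region of the 10 genes in any table at an adjusted p of 0.05. Over all regions it called 0% in each direction for G9a, 0.000408% (1 region) in the second pair and 0% in the first for H3K9me2, and 0% in each direction for H3K27me3. At an unadjusted limma p under 0.05, the 10 genes had 3 second-pair and 2 first-pair regions for G9a. These are of 63 regions of both directions together, beside 4.39% and 2.31% of all regions of both directions. Counted in the same way, they had 3 and 2 of 15 for H3K9me2 (5.52% and 6.29%), and 2 and 3 of 47 for H3K27me3 (9.52% and 9.25%). The lowest adjusted limma p at these genes was 0.471 for G9a, 0.383 for H3K9me2 and 0.219 for H3K27me3. A region's listing therefore rests on the authors' own p, and the values of single libraries are given with it. The tables hold no RNA, so the cell type could not be checked by expression. Of the 5 cardiomyocyte marker genes, 5 had a second-pair and 3 a first-pair G9a region, 2 and 1 an H3K9me2 region, and 1 and 2 an H3K27me3 region (beside 69.7% and 79.9% of all genes for H3K27me3). Of 4 endothelial marker genes these were 4 and 4, 3 and 4, and 4 and 4. Of 4 fibroblast marker genes they were 3 and 4, 3 and 4, and 4 and 4, and of 4 leukocyte marker genes 3 and 4, 3 and 2, and 3 and 3. Beside all these counts, the shares of all protein-coding genes were 73.2% and 89.1% for G9a, 52.0% and 64.7% for H3K9me2, and 69.7% and 79.9% for H3K27me3. The marker counts were not tested.

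Ehmt2 held the regions with the smallest p of the 10 genes, for G9a and for H3K9me2. It lies at chr17:34898463-34914073 on the plus strand, in the class III part of the major histocompatibility complex, with Zbtb12 before it and Slc44a4, a member of the choline transporter-like family, after it. The G9a antibody and the H3K9me2 antibody each gave a long and a second, shorter region over its body, all higher in the second pair. The longest G9a region, chr17:34904801-34909050 (4250 bp), had 3000 and 1364 in the second pair and 956 and 482 in the first pair in the authors' deposited table. Both second-pair libraries exceeded both first-pair libraries, and library 1, which had the lowest median over the table, was the highest of the 4 here. The log2 difference was 1.60 and the deposited -log10 p 164, rank 108 of 173035 second-pair G9a regions. Without that library the log2 difference was 0.92, and without any other single library it lay between 1.19 and 2.18. In limma the unadjusted p was 0.0470 and the adjusted p 0.471.

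H3K9me2 showed the same stretch of Ehmt2. Its region chr17:34905151-34909100 (3950 bp) had 2603 and 2160 in the second pair and 548 and 781 in the first pair in the authors' deposited table. The gap between the pairs was larger than the gap within either. The log2 difference was 1.84 and the deposited -log10 p 220, rank 15 of 108717 second-pair H3K9me2 regions. Leaving out each library in turn gave log2 differences of 1.61 to 2.12. In limma the standard error was 0.286, the unadjusted p 4.98e-05 and the adjusted p 0.383; over the alternatives the adjusted limma p ran from 0.0312, with a pseudocount of 10, to 0.543 without library 2 of the first pair.

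**Figure D2:**
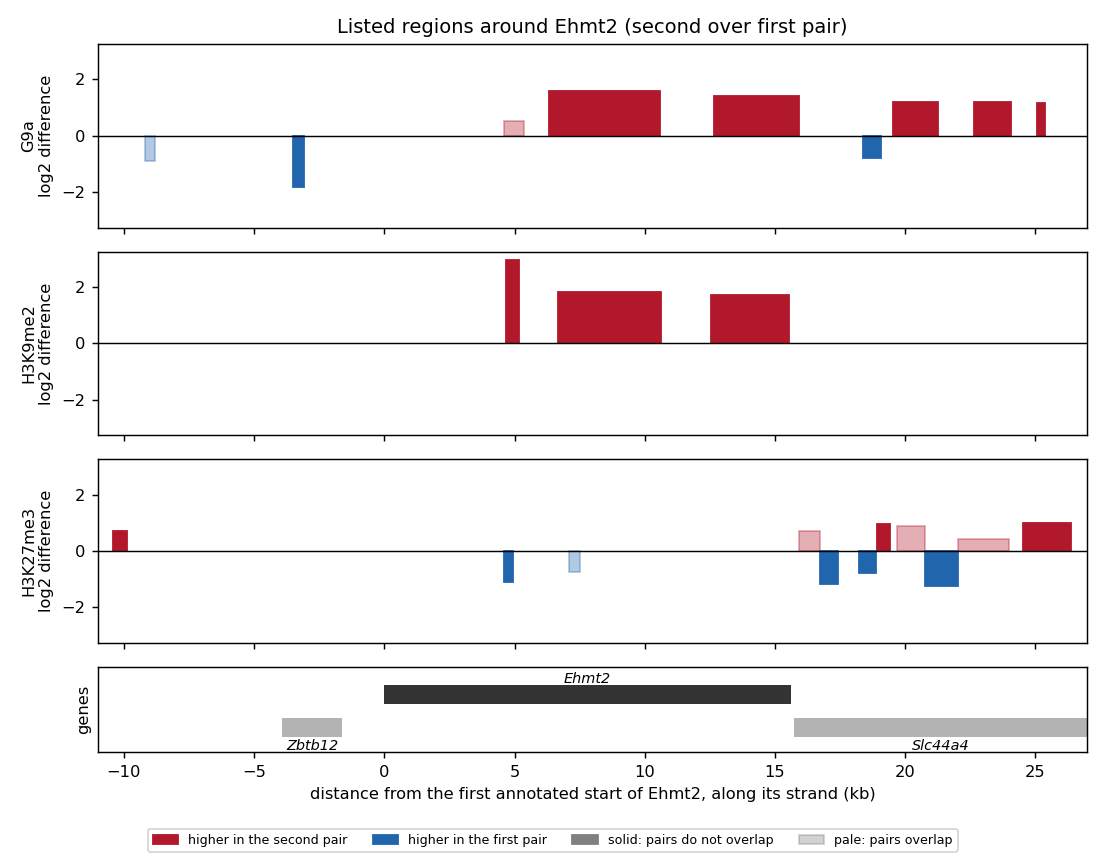
Listed regions of the 3 antibodies around Ehmt2, by distance from its upstream start along its strand (kb), with the log2 difference, second over first, as the height and gene bodies below; red is higher in the second pair, blue in the first, and pale bars have overlapping pairs. The 2 long second-pair G9a regions and the 2 long second-pair H3K9me2 regions lie over the same stretches of the gene body, well after both starts.

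Towards the end of Ehmt2 a second shared stretch followed. The G9a region chr17:34911151-34914400 had 1138 and 695 in the second pair, against 227 and 458 in the first pair, in the authors' deposited table (log2 difference 1.42). The H3K9me2 region chr17:34911001-34914000 had 1003 and 877 in the second pair, against 187 and 390 in the first pair, in the authors' deposited table (log2 difference 1.70). Neither pair overlapped the other at either antibody, and the unadjusted limma p was 0.0319 for G9a and 0.000975 for H3K9me2, with adjusted p of 0.471 and 0.383. Another, short stretch lay before these. There H3K9me2 at chr17:34903151-34903650 had 90 and 126 in the second pair and 11 and 15 in the first pair, and G9a at chr17:34903051-34903850 had 92 and 235 in the second pair and 117 and 108 in the first pair, both in the authors' deposited tables. The H3K9me2 pairs were separated (log2 difference 2.96) and the G9a pairs overlapped (0.54, and -0.29 without library 2 of the second pair).

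The second-pair regions of both antibodies covered nearly the same bases of Ehmt2. They shared 7250 bp, which is 61.4% of the second-pair G9a bases in the window and 97.3% of the H3K9me2 bases. The longest regions shared 3900 bp, or 91.8% of the G9a region and 98.7% of the H3K9me2 region, and the later ones 2850 bp, or 87.7% and 95.0%. Second-pair H3K9me2 regions covered 20.9% of the Ehmt2 window, where the median gene had 0.482% covered and 0.242% of genes had as much. Second-pair G9a regions covered 33.1%, where the median was 2.63% and 6.79% of genes had as much. Summed over the window, H3K9me2 was 3696 and 3163 in the second pair and 746 and 1186 in the first pair, and G9a was 5205 and 3058 in the second pair and 1685 and 1864 in the first pair, from the authors' deposited tables. With 2 against 2 an exact two-sided permutation test cannot go below p = 0.33, and it gave 0.33 for both.

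**Figure D3:**
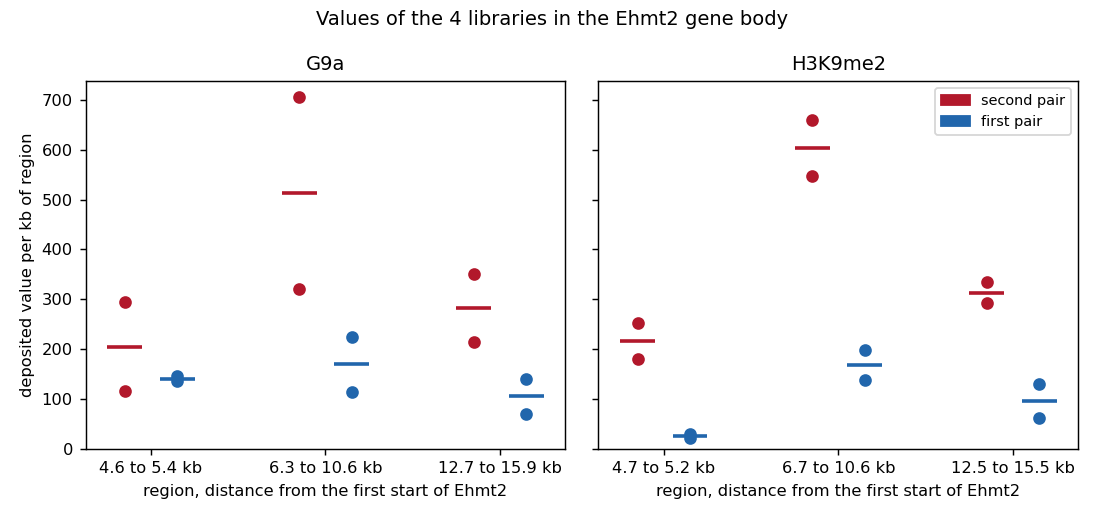
Deposited value per kb of region of each library (points) and the mean of each pair (lines) at the 3 G9a and the 3 H3K9me2 regions of the Ehmt2 body, second pair in red left of first pair in blue, by distance from the upstream start (kb). The second-pair libraries lie above the first-pair libraries in all of them except the first G9a region, where the pairs overlap.

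H3K27me3 did not share this pattern at Ehmt2. Only 2 short H3K27me3 regions lay in the body, both higher in the first pair. The region chr17:34903051-34903400 had 22 and 40 in the second pair and 68 and 67 in the first pair in the authors' deposited table (log2 difference -1.10). At chr17:34905551-34906000, wholly inside the longest G9a region, H3K27me3 had 34 and 57 in the second pair and 49 and 104 in the first pair in the authors' deposited table, with overlapping pairs. The other 9 H3K27me3 regions lay in the flanks, 8 of them after the gene over Slc44a4, and pointed both ways. The region chr17:34923001-34924850 had 628 and 345 in the second pair and 172 and 316 in the first pair, and chr17:34919251-34920500 had 201 and 127 in the second pair and 353 and 427 in the first pair, in the authors' deposited table. Their log2 differences were 0.99 and -1.24, both separated. Summed over the window, H3K27me3 was 2286 and 2355 in the second pair and 2067 and 1981 in the first pair (log2 difference 0.20, exact permutation p = 0.33); over the gene body alone the log2 difference was -0.90.

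Second-pair G9a regions also lay past the end of Ehmt2, over Slc44a4, but not in an unbroken run. Between them and the gene, the G9a region chr17:34916851-34917550 was higher in the first pair. It had 83 and 71 in the second pair and 91 and 178 in the first pair in the authors' deposited table (log2 difference -0.80), and was separated. At chr17:34918001-34919750 G9a had 512 and 297 in the second pair and 111 and 240 in the first pair in the authors' deposited table (log2 difference 1.20). Another 2 such regions followed, with log2 differences of 1.20 and 1.15, and no H3K9me2 region was listed there. The start of Slc44a4, at position 34914466, lay 66 bp after the end of the later Ehmt2 G9a region, so that 185 of the 300 bases around that start lie inside that region. An H3K27me3 region covers the start itself, with 135 and 224 in the second pair and 206 and 12 in the first pair in the authors' deposited table. These pairs overlapped, and the log2 difference of 0.71 was -0.20 without library 2 of the first pair. On the other side of Ehmt2, the first-pair G9a region with the smallest p, chr17:34894951-34895400 over Zbtb12, had 2 and 45 in the second pair and 103 and 67 in the first pair in the authors' deposited table (log2 difference -1.81, and -0.90 without library 1 and -4.84 without library 2 of the second pair).

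Neither of the annotated starts of Ehmt2, at positions 34898474 and 34898970, lay in or near a listed region. The closest region lay 3074 bp from a start for G9a, 4181 bp for H3K9me2 and 4081 bp for H3K27me3. The 300 bases around each start (250 before to 50 after, RefSeq, GRCm38.p6) are shown because no listed region reaches them. Capitals mark each CG, the dinucleotide at which mammalian DNA is methylated, which reads the same on both strands. The upstream start is chr17:34898224-34898523 and the other chr17:34898720-34899019, both on the plus strand.
Ehmt2, upstream start: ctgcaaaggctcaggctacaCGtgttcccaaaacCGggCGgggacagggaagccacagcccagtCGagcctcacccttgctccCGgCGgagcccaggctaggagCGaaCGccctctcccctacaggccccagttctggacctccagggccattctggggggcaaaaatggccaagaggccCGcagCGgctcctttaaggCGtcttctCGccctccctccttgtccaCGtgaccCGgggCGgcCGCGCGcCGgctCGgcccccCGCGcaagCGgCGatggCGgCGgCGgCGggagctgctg
Ehmt2, downstream start: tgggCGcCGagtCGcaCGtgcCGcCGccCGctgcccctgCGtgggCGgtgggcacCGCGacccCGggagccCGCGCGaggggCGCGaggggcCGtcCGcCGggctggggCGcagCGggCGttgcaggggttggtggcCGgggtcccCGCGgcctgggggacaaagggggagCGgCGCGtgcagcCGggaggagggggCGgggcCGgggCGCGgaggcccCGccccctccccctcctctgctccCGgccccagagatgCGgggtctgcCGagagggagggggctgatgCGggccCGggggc
These windows hold 28 and 40 CG, where the median over 21263 promoter windows of the same length was 13, and 18.8% and 5.08% of windows had as many. The window at the start of Slc44a4, chr17:34914216-34914515, where a G9a and an H3K27me3 region meet, held 13.
Slc44a4: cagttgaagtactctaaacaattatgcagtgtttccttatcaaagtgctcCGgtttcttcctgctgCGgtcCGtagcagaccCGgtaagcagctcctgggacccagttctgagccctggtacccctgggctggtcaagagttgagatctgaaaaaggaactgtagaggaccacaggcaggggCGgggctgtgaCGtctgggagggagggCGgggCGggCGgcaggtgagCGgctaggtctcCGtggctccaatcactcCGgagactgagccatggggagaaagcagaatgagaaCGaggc

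Ehmt1, which encodes GLP, the catalytic partner of G9a, differed from Ehmt2 in the direction of most G9a regions in its body. Its body (chr2:24790769-24919643, minus strand) held 9 G9a regions higher in the first pair and 2 higher in the second. Of the 9, 7 were separated and so cannot turn when a library is left out. The others also kept their direction without any 1 library. The smallest p of the 9 belonged to chr2:24836501-24837500, which had 3 and 81 in the second pair and 214 and 241 in the first pair in the authors' deposited table. Its log2 difference was -2.41 (-1.48 without library 1 and -5.84 without library 2 of the second pair), the deposited -log10 p 29.7 and the unadjusted limma p 0.0243 (adjusted 0.471). The next in p, chr2:24897351-24897800, had 0 and 12 in the second pair and 72 and 119 in the first pair in the authors' deposited table (log2 difference -3.79). Library 1 of the second pair was at 0 in 5 of the 9 regions, and the first-pair regions together covered 5.17% of the window, near the median of 5.09% over all genes. Summed over the window, G9a was 1253 and 1886 in the second pair and 1796 and 2050 in the first pair, from the authors' deposited table. These sums overlapped (log2 difference -0.29, exact permutation p = 0.67). With single libraries left out the log2 difference ran from -0.62 to -0.03.

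**Figure D4:**
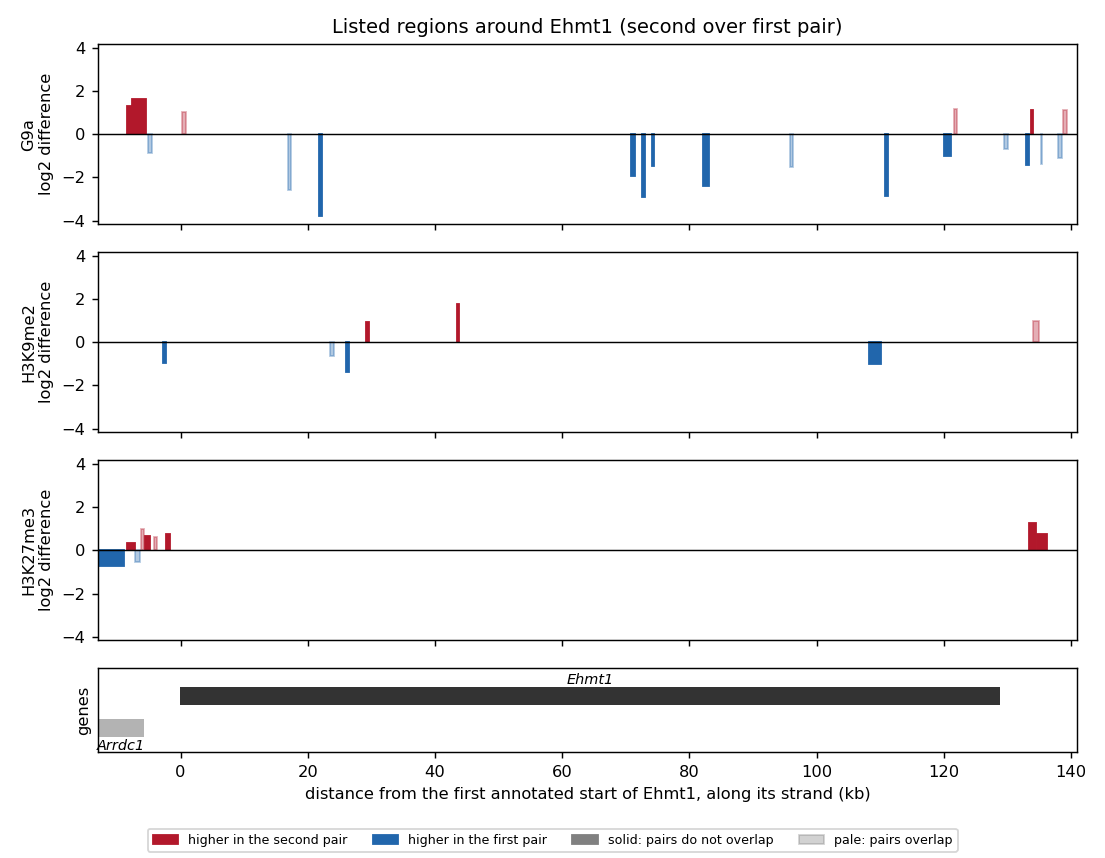
Listed regions of the 3 antibodies around Ehmt1, by distance from its start along its strand (kb), with the log2 difference, second over first, as the height; red is higher in the second pair, blue in the first, and pale bars have overlapping pairs. First-pair G9a regions are spread along the gene body, and the H3K27me3 regions lie in the flanks.

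Near the start of Ehmt1, and upstream of it, the listed G9a regions with the smallest p were higher in the second pair. A G9a region 159 bp inside the gene, chr2:24918701-24919450, had 72 and 179 in the second pair and 87 and 35 in the first pair in the authors' deposited table, with overlapping pairs. The second-pair G9a region with the smallest p lay upstream, over Arrdc1, which encodes an arrestin domain protein. It spans chr2:24925101-24927200, and had 508 and 585 in the second pair and 256 and 103 in the first pair in the authors' deposited table (log2 difference 1.60, and 1.09 to 2.40 with single libraries left out, deposited -log10 p 41.4, adjusted limma p 0.471).

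For H3K9me2, Ehmt1 had 3 regions higher in the second pair and 4 in the first. The smallest p belonged to chr2:24809501-24811400 in the body, with 199 and 163 in the second pair and 376 and 365 in the first pair in the authors' deposited table (log2 difference -1.03). The second-pair region with the smallest p, chr2:24784701-24785600 past the end of the gene, had 228 and 76 in the second pair and 128 and 23 in the first pair in the authors' deposited table. Its pairs overlapped, and without library 1 of the second pair its log2 difference was 0.0094. H3K27me3 had no region in the Ehmt1 body. Over Arrdc1, chr2:24928551-24932500 had 957 and 468 in the second pair and 1207 and 1130 in the first pair in the authors' deposited table (log2 difference -0.71). Past the end of Ehmt1, chr2:24785101-24786150 had 228 and 245 in the second pair and 184 and 14 in the first pair in the authors' deposited table (log2 difference 1.25, and 3.98 without library 1 and 0.36 without library 2 of the first pair).

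Wiz, on the same chromosome as Ehmt2 (chr17:32354047-32389501, minus strand), had its body and its upstream flank in opposite directions for G9a. All 4 G9a regions of the body were higher in the first pair, and all 3 over the upstream neighbour Rasal3, a Ras GTPase-activating protein of blood cells, were higher in the second pair. In the body, chr17:32367351-32368250 had 0 and 114 in the second pair and 137 and 222 in the first pair in the authors' deposited table (log2 difference -1.64, and -0.65 without library 1 and -7.50 without library 2 of the second pair). It was the only separated region of the 4, and library 1 of the second pair lay between 0 and 6 in all of them. In Rasal3, chr17:32398501-32399600 had 164 and 343 in the second pair and 15 and 151 in the first pair in the authors' deposited table (log2 difference 1.60, and 0.74 without library 1 and 3.99 without library 2 of the first pair).

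H3K27me3 was higher in the second pair in all 4 regions at Wiz, which lie over Rasal3, and all 4 were separated. The longest, chr17:32395901-32398650, had 1521 in each library of the second pair and 1028 and 759 in the first pair in the authors' deposited table. Its log2 difference was 0.77 and its deposited -log10 p 35.7. The adjusted limma p was 0.219. Over the alternatives it ran from 0.0359, after dividing each library by its median, to 0.709 after quantile normalisation. Under quantile normalisation limma's log2 difference was 0.13. Median scaling called 18197 of 552542 H3K27me3 regions over the whole table. The single H3K9me2 region of Wiz pointed the other way. It spans chr17:32392551-32393350, and had 92 and 55 in the second pair and 98 and 176 in the first pair in the authors' deposited table (log2 difference -0.89), while H3K27me3 over those same bases was higher in the second pair.

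Setdb1 (chr3:95323525-95357202, minus strand), the enzyme that trimethylates H3K9 at silenced repeats, was the only one of the 10 genes with a region of all 3 tables within 1000 bp of its start. The H3K9me2 region, chr3:95357701-95358050, lay 499 bp upstream and had 64 and 61 in the second pair and 4 and 39 in the first pair in the authors' deposited table (log2 difference 1.50, and 0.67 without library 1 and 3.67 without library 2 of the first pair). Its pairs were separated. The G9a region, chr3:95356201-95356800, 402 bp inside the gene, had 0 and 109 in the second pair and 70 and 123 in the first pair in the authors' deposited table (log2 difference -0.81). The H3K27me3 region, chr3:95356001-95356600, 602 bp inside, had 88 and 0 in the second pair and 192 and 32 in the first pair in the authors' deposited table (log2 difference -1.33). Both of these have overlapping pairs and a 0 in 1 library, and each turned direction when a library was left out: G9a to 0.17 without library 1 of the second pair, and H3K27me3 to 0.45 without library 1 of the first pair. The 300 bases around the start, chr3:95357153-95357452 on the minus strand, lie between these regions and hold 15 CG.
Setdb1: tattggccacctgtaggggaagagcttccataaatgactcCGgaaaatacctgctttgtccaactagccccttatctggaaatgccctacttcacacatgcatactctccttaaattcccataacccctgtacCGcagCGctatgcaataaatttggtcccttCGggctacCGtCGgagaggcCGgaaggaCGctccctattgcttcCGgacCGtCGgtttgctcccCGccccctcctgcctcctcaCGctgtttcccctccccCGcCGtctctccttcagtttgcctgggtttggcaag
Further upstream, chr3:95358751-95360050 was the G9a region with the smallest p at Setdb1, with 61 and 126 in the second pair and 223 and 265 in the first pair in the authors' deposited table (log2 difference -1.37, unadjusted limma p 0.0435, adjusted 0.471). A second-pair G9a region beyond it, chr3:95362651-95363150, had 49 and 127 in the second pair and 13 and 58 in the first pair in the authors' deposited table, with overlapping pairs.

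Trim28, the corepressor that brings Setdb1 to chromatin (chr7:13024152-13031032, plus strand), had 5 G9a regions, all higher in the first pair, and no H3K9me2 region. First-pair G9a regions covered 14.5% of its window, and 2.95% of genes had as much covered. Of the 5, 2 were separated. Without library 1 of the second pair only 3 of the 5 kept their direction, and the log2 difference of the window sum was -0.16, against -0.99 with all libraries. At chr7:13022651-13023300, which ends 852 bp before the start, G9a had 33 and 63 in the second pair and 132 and 80 in the first pair in the authors' deposited table (log2 difference -1.13). At chr7:13033551-13033850, over the ESCRT subunit gene Chmp2a, it had 0 and 19 in the second pair and 33 and 88 in the first pair in the authors' deposited table (log2 difference -2.55, and -1.62 without library 1 and -5.94 without library 2 of the second pair). The region of the body, chr7:13026301-13027450, had 1 and 189 in the second pair and 109 and 282 in the first pair in the authors' deposited table, with overlapping pairs, and its log2 difference of -1.03 was -0.05 without library 1 of the second pair.

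H3K27me3 at Trim28 lay upstream only, in 7 regions of both directions. At chr7:13017401-13018400 it had 325 and 329 in the second pair and 158 and 207 in the first pair in the authors' deposited table (log2 difference 0.84). At chr7:13020051-13020950 it had 163 and 92 in the second pair and 256 and 237 in the first pair in the authors' deposited table (log2 difference -0.95). Both regions were separated. The one nearest the start, chr7:13023051-13023500, ended 652 bp before it and had 105 and 101 in the second pair and 5 and 104 in the first pair in the authors' deposited table; its log2 difference of 0.91 was -0.01 without library 1 of the first pair.

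Suv39h2, a trimethylase of pericentric heterochromatin (chr2:3455815-3474986, minus strand), had no region in its body in any table. All 5 regions of its window were higher in the first pair, and 4 of them were separated. Its 3 G9a regions and its H3K27me3 region lay past the end of the gene, over Dclre1c, which encodes the DNA repair nuclease Artemis. At chr2:3449851-3450150 G9a had 6 and 0 in the second pair and 66 and 64 in the first pair in the authors' deposited table (log2 difference -4.04, and -6.04 without library 1 and -3.24 without library 2 of the second pair). H3K27me3 at chr2:3446601-3447600 had 107 and 52 in the second pair and 196 and 169 in the first pair in the authors' deposited table (log2 difference -1.19). The H3K9me2 region, chr2:3479451-3480150 upstream of the start, had 13 and 95 in the second pair and 111 and 137 in the first pair in the authors' deposited table (log2 difference -1.18, and -0.38 without library 1 and -3.16 without library 2 of the second pair). At chr2:3446151-3446850 G9a had 32 and 52 in the second pair and 104 and 183 in the first pair in the authors' deposited table (log2 difference -1.75). The remaining G9a region, chr2:3453551-3454200, had 18 and 92 in the second pair and 47 and 202 in the first pair in the authors' deposited table. Its log2 difference of -1.16 was 0.22 without library 2 of the first pair. The other 4 regions of the window are the separated ones, which cannot turn when a library is left out.

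Setdb2, a relative of Setdb1 (chr14:59402009-59440880, minus strand), showed H3K9me2 differences opposite to those of Ehmt2. Both H3K9me2 regions, each in the body, were higher in the first pair and separated. At chr14:59433951-59434400 H3K9me2 had 0 and 15 in the second pair and 126 and 95 in the first pair in the authors' deposited table (log2 difference -3.71, and -2.80 without library 1 and -6.80 without library 2 of the second pair). At chr14:59410201-59410800 it had 24 and 22 in the second pair and 148 and 126 in the first pair in the authors' deposited table (log2 difference -2.52, unadjusted limma p 0.00788, adjusted 0.383). These are short regions of low values beside the long ones of Ehmt2. Its 4 G9a regions were also higher in the first pair. The one with the smallest p, chr14:59412201-59412800, had 20 and 28 in the second pair and 88 and 160 in the first pair in the authors' deposited table (log2 difference -2.32), and was the only separated one. The 8 H3K27me3 regions, mostly past the end of the gene, pointed both ways. At chr14:59395201-59395700 H3K27me3 had 49 and 10 in the second pair and 131 and 58 in the first pair in the authors' deposited table (log2 difference -1.65, and -3.12 without library 1 and -0.93 without library 2 of the second pair). At chr14:59394501-59395000, next to it, H3K27me3 had 90 and 87 in the second pair and 13 and 55 in the first pair in the authors' deposited table (log2 difference 1.35, and 0.68 without library 1 and 2.68 without library 2 of the first pair). The annotation gives Gm45935 the same start and an overlapping span, so the regions in the body or past the end of Setdb2 also lie within Gm45935. The 2 G9a and 2 H3K27me3 regions upstream of the start lie over Cab39l instead.

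The genes of the 3 heterochromatin proteins had no H3K9me2 region. Cbx5, which encodes HP1 alpha (chr15:103191546-103239904, minus strand), had a long H3K27me3 region past its end. That region, chr15:103178051-103182300, had 1940 and 1986 in the second pair and 1262 and 1259 in the first pair in the authors' deposited table. The libraries of each pair had nearly the same value. The log2 difference was 0.64, with 0.62 to 0.66 when each library was left out, and the deposited -log10 p was 33.5. The adjusted limma p was 0.221, and over the alternatives it ran from 0.0388, after dividing each library by its median, to 0.814 after quantile normalisation. Median scaling called 18197 of 552542 H3K27me3 regions over the whole table. Under quantile normalisation limma's log2 difference was -0.06, so its direction turned with the scaling. Only part of this region falls in the window of Cbx5, whose edge is at position 103181546. The other H3K27me3 region, chr15:103189351-103189850, had 50 and 25 in the second pair and 81 and 92 in the first pair in the authors' deposited table.

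G9a at Cbx5 had 2 regions higher in the second pair and 5 in the first. At chr15:103248801-103249500, over the transcription factor gene Nfe2, it had 23 and 93 in the second pair and 109 and 181 in the first pair in the authors' deposited table (log2 difference -1.31, and -0.64 without library 1 and -2.60 without library 2 of the second pair). At chr15:103183151-103184100 it had 77 and 258 in the second pair and 9 and 167 in the first pair in the authors' deposited table; the pairs overlapped, and the log2 difference of 0.92 was -0.19 without library 2 of the second pair.

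Cbx1, which encodes HP1 beta (chr11:96788680-96808982, plus strand), had its 3 H3K27me3 regions upstream, all separated but not in 1 direction. At chr11:96779051-96779600 H3K27me3 had 38 and 4 in the second pair and 104 and 123 in the first pair, and at chr11:96783101-96783500 it had 13 and 8 in the second pair and 79 and 92 in the first pair, in the authors' deposited table. At chr11:96780351-96780850, between them, it had 104 and 110 in the second pair and 69 and 7 in the first pair in the authors' deposited table. The log2 differences were -2.38 (-4.52 without library 1 and -1.55 without library 2 of the second pair), -2.91 and 1.47 (3.75 without library 1 and 0.63 without library 2 of the first pair). Its G9a regions had low values, with 30 and 79 in the second pair and 1 and 48 in the first pair at chr11:96782051-96782350, and 32 and 20 in the second pair and 43 and 79 in the first pair at chr11:96783051-96783400, in the authors' deposited table.

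Cbx3, which encodes HP1 gamma (chr6:51470154-51483704, plus strand), had regions in the G9a table only. Both lay past the end of the gene, were higher in the second pair and were separated. At chr6:51490301-51491100 G9a had 116 and 207 in the second pair and 8 and 101 in the first pair in the authors' deposited table (log2 difference 1.55, and 0.67 without library 1 and 4.17 without library 2 of the first pair). At chr6:51488101-51488700 it had 132 and 102 in the second pair and 70 and 91 in the first pair in the authors' deposited table (log2 difference 0.53).

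Start sites of the 10 genes were looked at in all 3 tables, with no test. None of the 16 annotated starts lay inside a region of any table, beside 15.9% of all starts for G9a, 4.06% for H3K9me2 and 25.9% for H3K27me3. Within 1000 bp of a region lay 3 starts for G9a (Ehmt1, Setdb1 and Trim28), beside 37.7% of all starts, 1 for H3K9me2 (Setdb1), beside 12.1%, and 2 for H3K27me3 (Setdb1 and Trim28), beside 38.3%. The starts of 1 gene share their surroundings, so these counts are not of independent sites. For all 3 antibodies they rest on few starts, and no depletion is read from them. The limit of 10000 bp fell inside some neighbourhoods: of the outermost regions inside the windows, 31 in all, 11 lay within 1000 bp of an edge, and of the first regions outside, 60 in all, 6 did.

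Another 30 genes of H3K9 methylation (further methyltransferases, demethylases, readers and silencing complexes) were counted in the same way. Second-pair G9a regions lay at 18 of them (60.0%, beside 73.2% of all genes) and first-pair ones at 28 (93.3%, beside 89.1%). For H3K9me2 these were 16 (53.3%, beside 52.0%) and 21 (70.0%, beside 64.7%), and for H3K27me3 15 (50%, beside 69.7%) and 23 (76.7%, beside 79.9%). A region in all 3 tables was listed for 17 of the 30. The regions of smallest p at these 17 genes pointed both ways, and those of the first 4 by p were higher in the second pair. Prdm16, whose protein is a methyltransferase-related transcription factor, had 929 and 747 in the second pair and 178 and 189 in the first pair at its H3K9me2 region chr4:154313351-154315300 in the authors' deposited table (log2 difference 2.19). For H3K27me3, Mecom had 7936 and 7208 in the second pair and 5516 and 5012 in the first pair at chr3:30507751-30516450, in the authors' deposited table (log2 difference 0.52). Prdm2 had 3775 and 3059 in the second pair and 2416 and 1476 in the first pair at its H3K27me3 region chr4:143097801-143105150, in the authors' deposited table (log2 difference 0.81). The H3K27me3 region of Lrwd1, chr5:136110451-136114050, had 1502 and 1333 in the second pair and 777 and 667 in the first pair, in the authors' deposited table (log2 difference 0.97).

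Over the 12 library sums of the 3 tables, each centred on its antibody's mean, the genes most like Ehmt2 were Anpep (Pearson r 0.97), Crlf2 (0.95) and Cd300lb (0.95), of 14608 genes with a region in all 3 tables. These points share libraries and depth within an antibody, and they sum regions that were listed for a difference between the pairs. For both reasons r, high or low, is only a description. Among the 10 genes, r with Ehmt2 was 0.32 for Setdb1, -0.34 for Wiz, -0.64 for Ehmt1, -0.73 for Suv39h2 and -0.94 for Setdb2; the other 4 lack a region in a table and were not compared.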

How the data were processed

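The library kit, per the labels' protocols, was the NuGEN Ovation Ultralow System V2. Per the submitters' processing notes, BWA 0.7.10-r789 and SAMtools 1.1 were used with the mouse build mm10 (GRCm38). The sources used here do not name the program that called the regions, nor its treatment of input and depth. Each antibody has 1 table deposited by the authors, with 4 whole-number values and a -log10 p per region joined in column 11; since no source says that these values are raw counts, no count model was used, and the depth per library is unknown. The inputs have no values in the tables. The 4 mitochondrial regions were left out.

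Regions were joined to genes of the GRCm38.p6 gene table by an overlap of at least 1 bp with the window; exons and introns were not told apart. limma 3.58.1 (R 4.3.3) was fitted to log2(value + 1) of all regions of a table, with Benjamini-Hochberg adjustment. The code was tried on simulated data with large changes and less spread between libraries than many regions have here. That trial does not tell how many real differences limma would miss in these tables. The regions had been selected by the authors for a difference. Replicates are 2 biological replicates per condition by the series' design. The 10 genes, the lists and the tests were chosen with earlier results of these data known. The text names all 10 genes, with the region of smallest p per table and direction and any region within 1000 bp of a start, and for Ehmt2, Ehmt1 and others further regions chosen after their values were seen. Of the other 30 genes it names the 4 of smallest p among those with a region in every table, and it names the 3 genes most correlated with Ehmt2. Alternatives changed the window, overlap, p, scaling, pseudocount, filter and libraries. Starts, strands and promoter sequences came from RefSeq.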

Additional observations from a re-analysis of the deposited data

How the results depend on the processing

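Counts followed the window. In the gene body alone, G9a had 5 regions at 2 genes higher in the second pair and 19 regions higher in the first, H3K9me2 had 5 regions at 2 genes higher in the first pair, and H3K27me3 had 0 regions at 0 genes in the second pair and 4 at 3 genes in the first. With 2500 bp either side, these were 5 regions at 2 genes and 23 regions for G9a, 2 genes for first-pair H3K9me2, and 5 at 4 genes and 6 at 4 genes for H3K27me3. With 20000 bp, G9a had 44 second-pair regions, H3K9me2 had 15 first-pair regions at 8 genes, and H3K27me3 had 49 second-pair and 46 first-pair regions. Taking separated regions only left 12 second-pair G9a regions at 4 genes and 21 first-pair ones. limma called 1 of the 15 H3K9me2 regions (Ehmt2) with a pseudocount of 10, against 0 without. Over all regions that setting called 27 of 245088, against 1 without. After median scaling it called 2 of the 47 H3K27me3 regions (Wiz and Cbx5), against 0 without. Over all regions median scaling called 18197 of 552542, against 0 without. The cause was not tested. Median scaling shifted the log2 difference of all regions by 0.28 for G9a, 0.17 for H3K9me2 and 0.28 for H3K27me3, and turned the pair means of none of the regions at the 10 genes. Quantile normalisation turned limma's direction at 1 of 63 G9a regions, 0 of 15 H3K9me2 regions and 3 of 47 H3K27me3 regions, the long Cbx5 region among them.

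Of the 42 regions of smallest p or near a start, all kept their direction with median scaling, and 38 with any library left out. A pseudocount cannot turn the order of the pair means, so a pseudocount of 10 was no check of direction. Of all 125 regions at the 10 genes 105 kept theirs with any library left out. These were 51 of 63 for G9a, 14 of 15 for H3K9me2 and 40 of 47 for H3K27me3. Separated regions cannot turn when a library is left out, so these counts bear only on the others. With single libraries left out, the log2 difference ran from -0.19 to 4.07 at the Cbx5 G9a region starting at 103183151, from -6.61 to 0.17 at the Setdb1 G9a region at 95356201, from -6.82 to 0.45 at the Setdb1 H3K27me3 region at 95356001, and from -0.014 to 4.12 at the Trim28 H3K27me3 region at 13023051. Window sums turned from second to first pair in the gene body alone for Ehmt2 H3K27me3 (-0.90) and Wiz G9a (-1.23). With single libraries left out they ran from -0.27 to 0.27 for Ehmt1 H3K27me3, -0.26 to 0.40 for Wiz G9a, -2.69 to 0.89 for Setdb1 H3K27me3, -0.42 to 0.53 for Trim28 H3K27me3, -0.62 to 0.098 for Setdb2 H3K27me3, -1.96 to 0.33 for Cbx5 G9a and -0.90 to 0.32 for Cbx1 G9a. No paired analysis was possible because the tables tie no value to a replicate number. Low regions and 2 libraries a pair limit every value.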
